A study of Mus musculus with 4 samples.

Results

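The complement and coagulation proteins of plasma were followed through 37 named genes, fixed as a list of complement components, clotting and fibrinolysis factors, and their inhibitors and regulators. Members were the genes of that list with at least 1 probe set whose platform annotation gave that gene as its only symbol. This held for 30 of the 37, with 37 probe sets between them, out of 8251 named genes on the array. They fell into 8 complement genes, 13 coagulation genes including plasminogen, and 9 inhibitors and regulators. C3, C8a, C8b, Cfd, F11 and Cpb2 had no such probe set and C4b shared its probe sets with another symbol, so these 7 are not analysed here. The list names genes by their function, and it was drawn up with earlier results of these data known.

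RNA of whole liver was hybridised to Affymetrix MG_U74Av2 arrays, 2 from PEPCK-TAg transgenic mice and 2 from non-transgenic wild-type mice. The PEPCK-TAg transgene puts the large T and small t antigens of the virus SV40 under the promoter of Pck1, the gene of phosphoenolpyruvate carboxykinase, which hepatocytes use. All animals were male B6SJL hybrids of 58 to 60 days, kept from weaning for 4 weeks on a feed with 10% protein and 70% carbohydrate. The comparison asks how gene expression differs between livers with and without this transgene. The labels name no transgenic line, do not say how much oncoprotein was made, and speak of duplicate measurements without saying whether 2 mice or 1 stood behind a pair of arrays. The p-values therefore measure array-to-array spread alone, and that spread may be technical. Pck1 itself had 1605 and 565.5 in PEPCK-TAg and 2372 and 2308 in wild-type (limma, Benjamini-Hochberg adjusted p = 0.121). The proliferation marker Mki67 had 672 and 431 in PEPCK-TAg against 5.8 and 8.7 in wild-type by its brighter probe set, while its other probe set had 70.1 and 75.1 in PEPCK-TAg and 99.1 and 81.9 in wild-type.

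Complement and clotting are cascades of plasma proteases that circulate as inactive precursors, and hepatocytes make most of them. Complement is started by antibody, by lectins that bind microbial sugars or by spontaneous turnover, and it ends in a pore in the target membrane. Clotting ends in thrombin, which turns fibrinogen into fibrin, and plasmin dissolves the clot. Serpins restrain both cascades, and the protein C system restrains clotting. Several of these genes are also acute phase genes, whose liver expression changes in inflammation.

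The RNA carried the marks of liver. Albumin (Alb) had a signal of 13339 and 12446 on the PEPCK-TAg arrays and of 16723 and 14430 on the wild-type arrays. The lowest signal of any of the 15 tested hepatocyte markers was 65.1. Their summed signal was 72058 and 64244 on the PEPCK-TAg arrays, against 98078.5 and 85049 on the wild-type arrays. Of these markers 0 passed the test, limma with Benjamini-Hochberg adjusted p below 0.05, while 7 were lower at an unadjusted p below 0.05. For actin, the control probe set at the 3' end exceeded that at the 5' end 5.06-fold and 4.79-fold in PEPCK-TAg and 4.87-fold and 4.06-fold in wild-type. For Gapdh the same ratio was 3.36 and 2.95 in PEPCK-TAg, against 3.67 and 3.80 in wild-type, with no overlap. Signals are MAS5 values on a linear scale, and log2 changes are of the signal plus 13. The trimmed mean computed from them was about 250.2 on each array.

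Upstream sequence is shown for 4 members. F2 and F10, which passed the test, are not among them. Fga, Fgb and Fgg encode the chains of a single plasma protein, fibrinogen, and had lower signals on both PEPCK-TAg arrays without passing the test, and Hrg had the largest change of any member. Each run is the 250 bases before the gene's start, 5′ to 3′ on the gene's own strand, from RefSeq, build GRCm38.p6. Capitals mark every match, on either strand, to letters bound by liver or inflammatory transcription factors.
Fga, chr3:83025903-83026152, plus strand: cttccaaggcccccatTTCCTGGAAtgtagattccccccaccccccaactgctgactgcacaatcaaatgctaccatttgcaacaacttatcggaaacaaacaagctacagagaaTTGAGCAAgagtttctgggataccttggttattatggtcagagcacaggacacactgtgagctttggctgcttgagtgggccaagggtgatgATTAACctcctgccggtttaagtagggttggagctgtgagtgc
Fgb, chr3:83049864-83050113, minus strand: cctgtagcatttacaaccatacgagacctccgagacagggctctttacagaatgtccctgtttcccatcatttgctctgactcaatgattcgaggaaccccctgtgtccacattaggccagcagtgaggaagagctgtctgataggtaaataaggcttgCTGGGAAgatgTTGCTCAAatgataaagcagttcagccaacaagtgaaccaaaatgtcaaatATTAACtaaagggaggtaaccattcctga
Fgg, chr3:83007474-83007723, plus strand: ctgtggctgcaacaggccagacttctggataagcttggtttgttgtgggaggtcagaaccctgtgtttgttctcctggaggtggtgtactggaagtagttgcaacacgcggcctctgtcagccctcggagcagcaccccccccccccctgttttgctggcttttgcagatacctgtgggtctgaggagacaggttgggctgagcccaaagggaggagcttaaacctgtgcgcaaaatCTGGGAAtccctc
Hrg, chr16:22950822-22951071, plus strand: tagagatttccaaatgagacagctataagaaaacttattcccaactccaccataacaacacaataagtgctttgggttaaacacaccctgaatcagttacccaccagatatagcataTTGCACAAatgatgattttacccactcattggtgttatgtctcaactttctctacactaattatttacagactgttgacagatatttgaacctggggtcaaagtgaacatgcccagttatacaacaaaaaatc

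The letters searched, on both strands, were GTTAAT, the core of the site of HNF1, and the full palindromic HNF1 consensus, which contains that core. For HNF4 they were CAAAGTCCA and CAAAGGTCA. For C/EBP they were TTGCNNAA and the palindrome TTGCGCAA, which every TTGCNNAA search also finds. For the response element of interleukin 6 they were CTGGGAA, and for STAT factors TTCCNGGAA. RefSeq windows were matched for 22 of the 30 members. GTTAAT stood in 5 of these 22 windows (Fga, Fgb, F13b, Hc and Vtn), against 6.43% of all 32851 windows of the same length, and TTGCNNAA in 6 of 22 (Fga, Fgb, Hrg, C9, F9 and Klkb1), against 9.56%. CTGGGAA stood in 4 of 22 (Fgb, Fgg, F9 and Masp2), against 9.10%, and TTCCNGGAA in Fga and Pros1, against 0.913%. CAAAGGTCA was found in F7 alone, against 0.426%, while the full HNF1 consensus, CAAAGTCCA and TTGCGCAA were in 0 of the 22, against 0.00913%, 0.384% and 0.164%. In Fga the GTTAAT match lay from base -43 to -38 before the start, and in Fgb from -29 to -24. These are matches of letters and were not tested against the expression values.

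Most members had lower signals in PEPCK-TAg than in wild-type liver, by modest amounts. Of the 30 genes, all of which passed the filter on dim probe sets, 27 had a negative log2 change, a sign found in 48.9% of the 5650 genes tested. The median change was -0.38, against 0.01 over all genes tested. In the fit across all probe sets (limma, Benjamini-Hochberg adjusted p below 0.05) 3 members fell, Hrg, F2 and F10, and 0 rose. Over all genes 3.01% fell and 6.83% rose by this rule, 9.84% in either direction. The count of members that fell was 2 without PEPCK-TAg replicate 1, 1 without PEPCK-TAg replicate 2, 0 without wild-type replicate 1 and 3 without wild-type replicate 2. With quantile normalization, which gives all arrays 1 distribution, it was 1, and 23 of 30 changes were negative. At an unadjusted p below 0.05 there were 17 lower and 2 higher members, against 11.3% and 16.6% of all genes. The count of lower members by that rule was 7 without PEPCK-TAg replicate 2, 9 without wild-type replicate 1 and 9 with quantile normalization. Both PEPCK-TAg arrays lay below both wild-type arrays for 21 members, against 26.7% of all genes, and above them for 2, against 31.2%. Less RNA per hepatocyte and a smaller share of hepatocytes in the tissue cannot be told apart in such samples. Of 9 listed bile duct markers, 7 were on the array and only 3 passed the filter on dim probe sets. These 3, Krt8, Krt18 and Anxa4, all rose, and the rest of the list was not tested. The summed signal of the 3 was 5642 and 6909 on the PEPCK-TAg arrays, against 2669 and 3283 on the wild-type arrays. Krt8 and Krt18 are keratins that hepatocytes make too. Of 13 endothelial markers 0 passed the test, with a median change of -0.49 and summed signals of 2281 and 3315 in PEPCK-TAg, against 3529 and 3842 in wild-type. Of 9 tested stellate cell markers 1 rose and 0 fell, with a median change of 0.26. Of 4 tested red blood cell markers 1 rose and 0 fell, with changes from -2.01 to 2.27. The part of any of these cell types in the members' values was not tested.

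**Figure D1:**
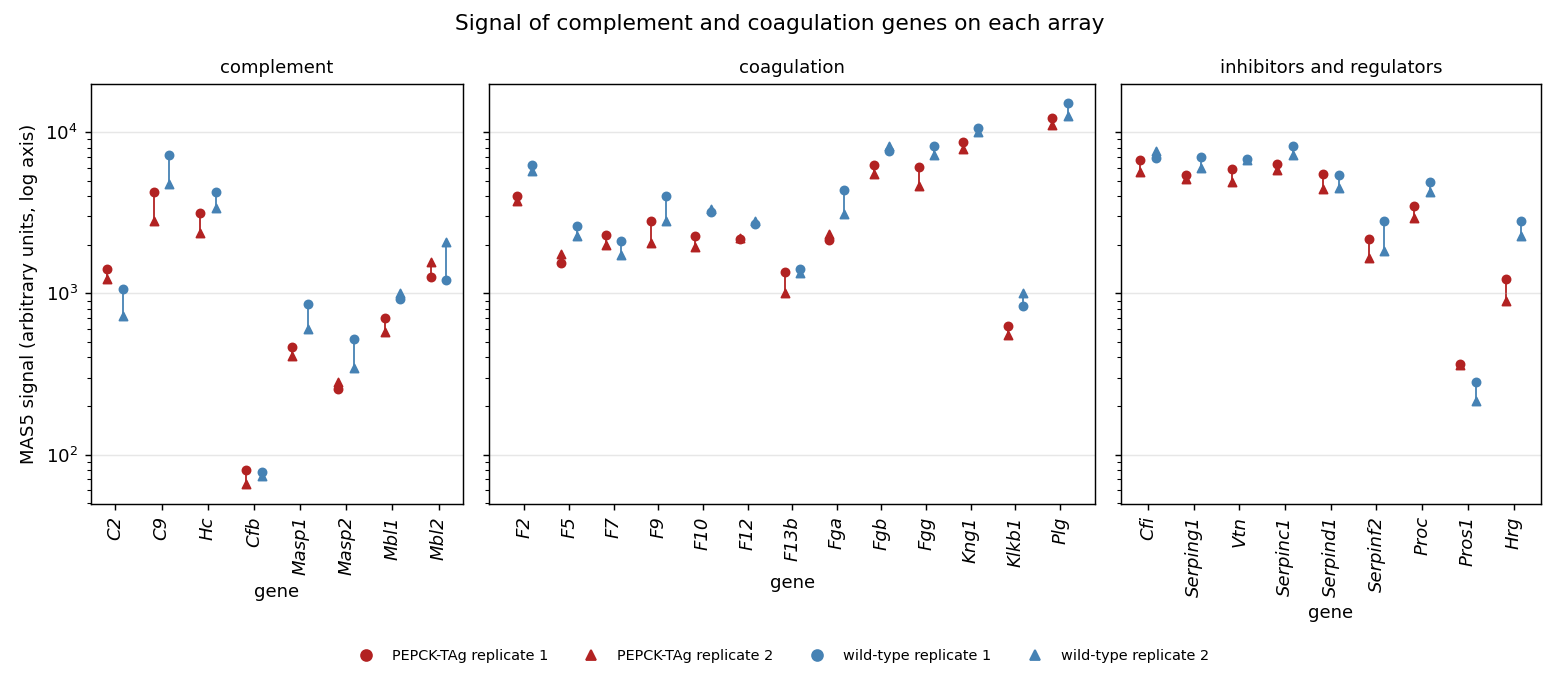
MAS5 signal (arbitrary units, log axis) of each member gene on each array, in 3 panels for complement, coagulation, and inhibitors and regulators. Circles are replicate 1 and triangles replicate 2, with PEPCK-TAg in red to the left of wild-type in blue. For 21 of 30 genes both red points lie below both blue points, and C2 and Pros1 have both above.

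Arrays of a group also differed from each other. In the median over members, the log2 signal stood -0.09 and -0.29 from the mean of the 4 arrays on PEPCK-TAg replicates 1 and 2, against 0.26 and 0.10 on wild-type replicates 1 and 2. Replicate 1 was the higher array for 25 of 30 members in PEPCK-TAg and for 23 of 30 in wild-type, against 49.8% and 52.2% of all genes. The members together held 2.33% and 2.06% of the total signal on the PEPCK-TAg arrays, against 2.80% and 2.55% on the wild-type arrays.

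Among the complement genes 0 of 8 passed the test, 7 had negative changes, and the class median was -0.53. Of these 7, 4 belong to the lectin pathway, 2 to the terminal complex, and the last is Cfb, whose change was near 0. Masp1, a protease that circulates bound to mannose-binding lectins, had 463 and 407 on the PEPCK-TAg arrays, against 861 and 600 on the wild-type arrays. The groups did not overlap, and the log2 change was -0.71 ± 0.21 (SE, limma, Benjamini-Hochberg adjusted p = 0.0904). Masp2, which cleaves C4 and C2 once the lectin has bound, measured 254 and 282 in PEPCK-TAg, against 522 and 343 in wild-type, a change of -0.64 ± 0.23 (adjusted p = 0.140). The lectin gene Mbl1 measured 702 and 577 in PEPCK-TAg, against 928 and 1009 in wild-type, a change of -0.59 ± 0.17 (adjusted p = 0.0792). All 3 were lower on both transgenic arrays, and none passed the threshold.

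Mbl2, the other mannose-binding lectin, had 1258 and 1572 in PEPCK-TAg and 1209 and 2086 in wild-type, so its groups overlapped. The interval of its change reached from -0.82 to 0.47. Its 2 wild-type arrays differed from each other by more than the group means did, and the change was 0.22 without wild-type replicate 2. Of the terminal components, C9, which forms the wall of the membrane pore, measured 4266 and 2819 in PEPCK-TAg, against 7258 and 4772 in wild-type, 41.1% lower in the mean. Its change was -0.76 ± 0.26 (limma, Benjamini-Hochberg adjusted p = 0.131), the lowest of the complement class. Hc, the mouse gene of complement component C5, measured 3127 and 2382 in PEPCK-TAg, against 4235 and 3383 in wild-type, with an adjusted p of 0.177 (change -0.47 as reported, -0.27 with quantile normalization). For both genes the lower wild-type array exceeded the higher PEPCK-TAg array by little, and replicate 1 exceeded replicate 2 in each group.

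C2, the protease of the C3 convertase of the classical and lectin pathways, went the other way. It measured 1415 and 1221 in PEPCK-TAg, against 1061 and 718 in wild-type, 1.48-fold in the mean, and did not pass the test (limma log2 change 0.58 ± 0.22, Benjamini-Hochberg adjusted p = 0.152). A second C2 probe set was dim, with 20.1 and 22.5 in PEPCK-TAg and 25.2 and 19.0 in wild-type, and was below the filter. Cfb, the matching protease of the alternative pathway, was also dim. It had 80.6 and 65.2 in PEPCK-TAg and 78.3 and 73.3 in wild-type by the brighter probe set, and overlapping groups by the other.

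**Figure D2:**
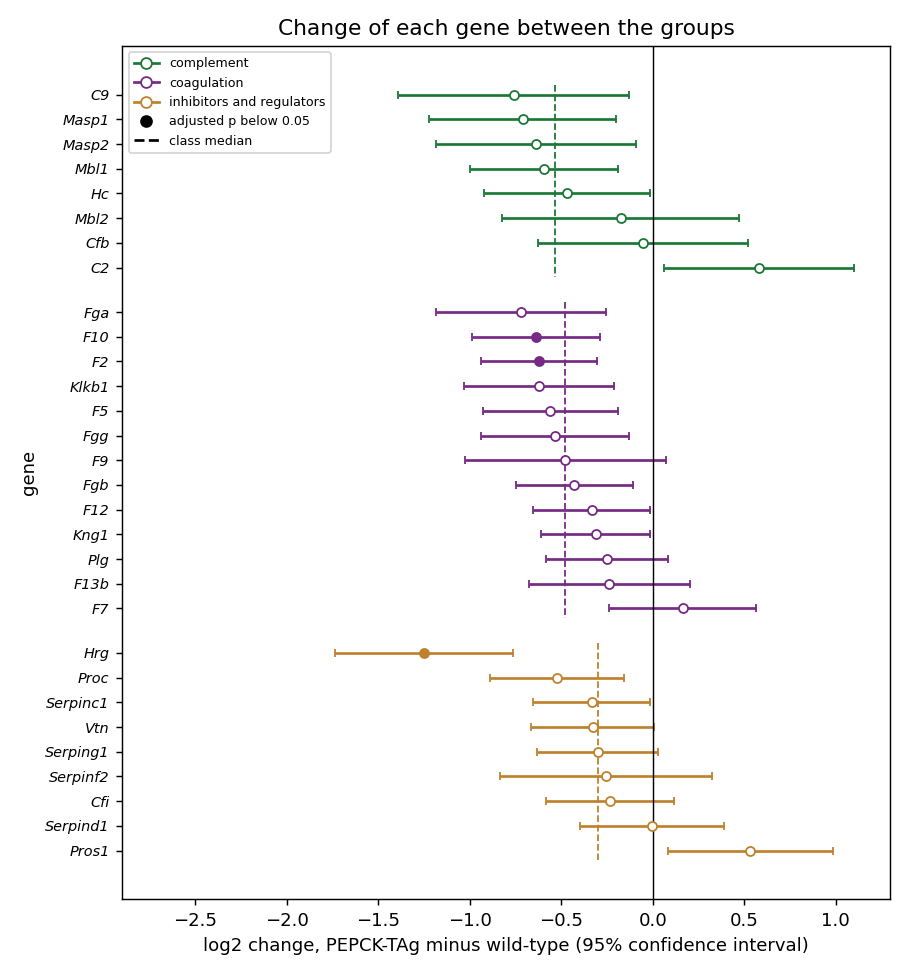
The log2 change of each member gene, PEPCK-TAg minus wild-type (horizontal axis), with its 95% confidence interval, ordered within complement, coagulation, and inhibitors and regulators. Filled points passed an adjusted p below 0.05 and dashed lines are class medians of -0.53, -0.48 and -0.30. Hrg at -1.25 lies farthest from 0.

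Among the coagulation genes 2 of 13 fell, 12 had negative changes, and the class median was -0.48. F2 encodes prothrombin, the precursor of thrombin. It measured 4025 and 3733 on the PEPCK-TAg arrays, against 6232 and 5723 on the wild-type arrays. The groups were well apart, 35.1% lower in the mean, and the change was -0.62 ± 0.13 (limma, Benjamini-Hochberg adjusted p = 0.0344). F10, the gene of the factor that activates prothrombin, measured 2258 and 1940 in PEPCK-TAg, against 3196 and 3330 in wild-type, a change of -0.64 ± 0.15 (adjusted p = 0.0427). The other F10 probe set did not share the fall, with 474 and 327 in PEPCK-TAg and 414 and 374 in wild-type (change 0.0017, adjusted p = 0.996). Both calls were near the threshold. The adjusted p of F2 was 0.102 without PEPCK-TAg replicate 1, 0.177 without PEPCK-TAg replicate 2, 0.112 without wild-type replicate 1 and 0.0624 without wild-type replicate 2. For F10 it was 0.0778 without PEPCK-TAg replicate 1, 0.220 without PEPCK-TAg replicate 2, 0.104 without wild-type replicate 1 and 0.109 without wild-type replicate 2. With quantile normalization F2 changed by -0.32 (adjusted p = 0.114) and F10 by -0.47 (adjusted p = 0.0795).

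F5 of the common pathway and F7 of the extrinsic pathway had changes of opposite sign. F5, the cofactor that speeds prothrombin cleavage, measured 1547 and 1743 in PEPCK-TAg, against 2612 and 2253 in wild-type, 32.4% lower, with an adjusted p of 0.0733. F7, which starts clotting together with tissue factor, had 2316 and 1994 in PEPCK-TAg and 2120 and 1733 in wild-type. Its groups overlapped in both of its probe sets, and the interval of the change, -0.24 to 0.56, held 0. F7 was the only coagulation gene with a positive change as reported, and Plg joined it with quantile normalization (0.12).

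The genes of the fibrinogen chains shared a direction, although none passed the test. Fga measured 2131 and 2346 in PEPCK-TAg, against 4403 and 3102 in wild-type. Fgb measured 6281 and 5492 in PEPCK-TAg, against 7616 and 8206 in wild-type. Fgg measured 6083 and 4656 in PEPCK-TAg, against 8256 and 7212 in wild-type. Both transgenic arrays were below both wild-type arrays for each chain, with mean signals lower by 40.3%, 25.6% and 30.6% and limma Benjamini-Hochberg adjusted p of 0.0681, 0.101 and 0.104. With quantile normalization the changes were -0.53 for Fga, -0.13 for Fgb (adjusted p = 0.552) and -0.23 for Fgg (adjusted p = 0.272), against -0.72, -0.43 and -0.53 as reported. F13b, which encodes the carrier subunit of the enzyme that crosslinks fibrin, overlapped between groups, with 1349 and 1008 in PEPCK-TAg and 1422 and 1332 in wild-type. Plg, the gene of plasminogen, had the same change of -0.25 to -0.26 in both probe sets, of which the brighter, by its suffix, can also bind related transcripts. Its signals there were 12220 and 11074 in PEPCK-TAg, against 15213 and 12566 in wild-type (adjusted p = 0.316). In the dimmer probe set the groups overlapped, with 5003.5 and 3934.5 in PEPCK-TAg and 5934 and 4741.5 in wild-type.

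The contact system and factor IX had negative changes as well, none past the threshold. Klkb1, the gene of plasma prekallikrein, measured 623 and 554 in PEPCK-TAg, against 831.5 and 998 in wild-type (change -0.62 ± 0.17, adjusted p = 0.0724). Kng1, the gene of kininogen, which prekallikrein binds, measured 8685 and 7863 in PEPCK-TAg, against 10582 and 9946 in wild-type (adjusted p = 0.172). F12, which starts the contact pathway, measured 2166 and 2210 in PEPCK-TAg, against 2695 and 2828 in wild-type (adjusted p = 0.175). Arrays of a group agreed closely for F12 and Kng1, whose means were 20.8% and 19.4% lower in PEPCK-TAg. With quantile normalization the change of F12 was -0.18 (adjusted p = 0.408) and that of Kng1 -0.017 (adjusted p = 0.925). F9 had 2802 and 2056 in PEPCK-TAg and 4008 and 2794 in wild-type, and its groups overlapped by a narrow margin (change -0.48 as reported, -0.30 with quantile normalization).

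Among the inhibitors and regulators 1 of 9 fell, 8 had negative changes, and the class median was -0.30. The gene that fell was Hrg, which encodes histidine-rich glycoprotein, a plasma protein that binds heparin, plasminogen and fibrinogen. It measured 1230 and 902 on the PEPCK-TAg arrays, against 2812 and 2261 on the wild-type arrays. The groups were far apart, with a mean 58.0% lower in PEPCK-TAg and a change of -1.25 ± 0.20 (limma, Benjamini-Hochberg adjusted p = 0.0156). It stood at rank 71 from the lowest of 7453 probe sets tested. The call was kept in 12 of 13 alternatives and was lost without wild-type replicate 1, where the change was -1.09 (adjusted p = 0.0609).

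The serpins, Vtn and Cfi had smaller differences than Hrg. Serpinc1, the gene of antithrombin, measured 6361 and 5835 in PEPCK-TAg, against 8179 and 7203 in wild-type (change -0.33 ± 0.13, adjusted p = 0.175). Serping1, the gene of C1 inhibitor, measured 5435 and 5138 in PEPCK-TAg, against 7044 and 6029 in wild-type (adjusted p = 0.222). Serpind1, heparin cofactor II, had 5466 and 4460 in PEPCK-TAg and 5433 and 4502 in wild-type. Its change was -0.0024, with an interval from -0.40 to 0.39, and its arrays differed more within each group than between groups. Serpinf2, whose product inhibits plasmin, overlapped between groups in both probe sets. Vtn, which blocks insertion of the terminal complex, measured 5896 and 4909 in PEPCK-TAg, against 6817 and 6699 in wild-type (adjusted p = 0.199). Cfi, the protease that inactivates C3b and C4b, measured 6741 and 5617 in PEPCK-TAg, against 6866 and 7636 in wild-type (adjusted p = 0.367). With quantile normalization the changes of Serpinc1 and Vtn were -0.032 and -0.0086, against -0.33 for each as reported.

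The anticoagulant protein C and its cofactor had opposite signs. Proc measured 3456 and 2926 in PEPCK-TAg, against 4900 and 4279 in wild-type, 30.5% lower (change -0.52 ± 0.15, limma adjusted p = 0.0844). With quantile normalization its change was -0.31. A second Proc probe set was dim, with 36.2 and 39.6 in PEPCK-TAg and 24.1 and 38.2 in wild-type, and was below the filter. Pros1, the cofactor protein S, measured 362 and 360.0 in PEPCK-TAg, against 280.5 and 214 in wild-type, 1.46-fold in the mean (change 0.53 ± 0.19, adjusted p = 0.136). Neither passed the test, and the difference between them was not tested. Vitamin K is needed to complete F2, F7, F9, F10, protein C and protein S. Of 9 tested genes in a list of vitamin K-dependent genes, 2 fell, the F2 and F10 described above, against 3.01% of all genes. In that list 6 changes were negative and 3 positive. The largest positive change was that of Gas6, with 111.5 and 228 in PEPCK-TAg against 96.8 and 73.9 in wild-type (limma adjusted p = 0.178). Vkorc1, which recycles the vitamin, measured 1548 and 1530.0 in PEPCK-TAg, against 2070 and 2562 in wild-type (adjusted p = 0.0737).

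The ranges of the classes overlapped. Changes ran from -0.76 to 0.58 among complement genes, from -0.72 to 0.16 among coagulation genes and from -1.25 to 0.53 among inhibitors and regulators. Their medians kept the order of complement lowest and inhibitors highest in 12 of 13 alternatives. The exception was the fit without wild-type replicate 1 (complement -0.40, coagulation -0.44, inhibitors -0.24). The fits with no filter on dim probe sets, with eBayes without the trend and with the replicate number as a block could not move these medians. Centring each array on its median moved every change by the same amount, so it could not reorder the classes. These fits therefore do not bear on the order. With quantile normalization the medians were -0.40, -0.23 and -0.0086, beside a median of -0.05 over all genes, and Plg, Cfi, Serping1 and Serpind1 had positive changes. With arrays centred on their medians the median of all genes moved to -0.13. The class medians relative to it, -0.55, -0.49 and -0.32, were those of the reported fit, because centring moves every gene alike.

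**Figure D3:**
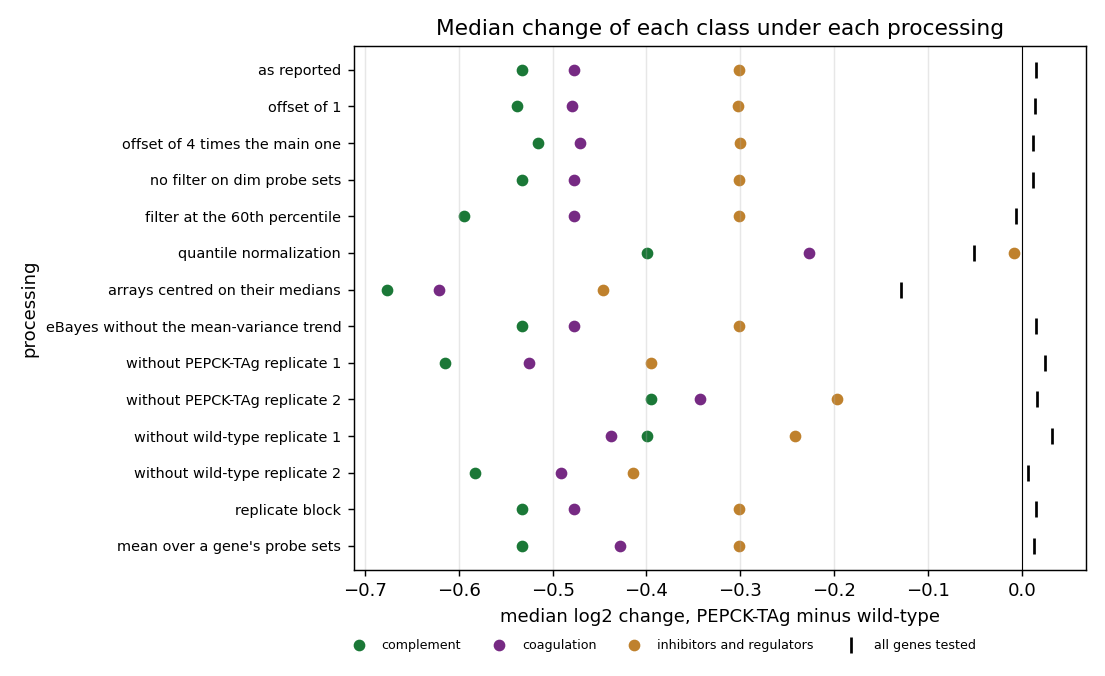
Median log2 change, PEPCK-TAg minus wild-type (horizontal axis), of the 3 classes and of all genes tested (black ticks), as reported and under each alternative processing (rows). The inhibitors lie at -0.0086 with quantile normalization and at -0.30 as reported.

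Bright genes as a whole were lower in PEPCK-TAg liver, and most members are bright. Of the 732 other genes with a mean signal of at least 1000, 66.8% had a negative change, 11.5% fell by the test, and the median was -0.17. The 24 members in that range had a median of -0.33, 22 negative changes and 3 falls, 12.5%. The 6 members below it had a median of -0.61 with 0 calls, while the 4888 other genes below it had a median of 0.05. The part of this brightness pattern in the members' changes was not tested.

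Other plasma proteins made by liver stood close to the members. Of 28 tested, 27 had negative changes and 5 fell, Apoa2, Itih1, Rbp4, Ces1c and Afm, with a median of -0.36. Apoa2, an apolipoprotein of high-density lipoprotein, measured 3865 and 3959 in PEPCK-TAg, against 6524 and 6568 in wild-type (change -0.74 ± 0.12, limma, Benjamini-Hochberg adjusted p = 0.0166). The retinol carrier gene Rbp4 measured 6869 and 6355 in PEPCK-TAg, against 10775 and 9803 in wild-type (adjusted p = 0.0278). Of 16 transcription factors of liver, 1 fell, the bile acid receptor gene Nr1h4, 10 had negative and 6 positive changes, and the list median was -0.22. Cebpa, which drives hepatocyte genes, measured 2713 and 2971 in PEPCK-TAg, against 4027 and 3709 in wild-type (adjusted p = 0.0989). Hnf4a had 136 and 20.3 in PEPCK-TAg and 113 and 124 in wild-type, so a single transgenic array was low. At an unadjusted p below 0.05, 4 of the 16 were lower and 2 higher. The higher were Cebpd, with 342 and 284 in PEPCK-TAg against 145 and 241 in wild-type (adjusted p = 0.149), and Foxa3, with 388 and 353 in PEPCK-TAg against 278 and 279.5 in wild-type (adjusted p = 0.183).

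Complement and clotting genes outside the list did not share a direction. Of 16 other complement genes, 2 fell and 1 rose, with a median of 0.24. C8g, the gamma chain of C8, measured 2528.5 and 2161 in PEPCK-TAg, against 4762 and 4300.2 in wild-type (change -0.95 ± 0.15, adjusted p = 0.0140). Cpn1, the catalytic subunit of carboxypeptidase N, which inactivates complement peptides, measured 857 and 746 in PEPCK-TAg, against 1565 and 1469 in wild-type (adjusted p = 0.0181). C1qb, a chain of C1q, which macrophages make, measured 545 and 619.5 in PEPCK-TAg, against 174 and 293 in wild-type (change 1.31 ± 0.25, adjusted p = 0.0257). A dimmer C1qb probe set did not pass, with 134 and 158 in PEPCK-TAg and 105 and 147 in wild-type.

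Some macrophage markers were higher too. Of 15 tested, 6 rose, 0 fell and 9 did not pass, 6 of them with overlapping groups and Mrc1 (-0.29) and Aif1 (-0.06) with negative changes. Among those that rose was the Kupffer cell gene Clec4f. The summed signal of the 15 was 13110 and 17660 on the PEPCK-TAg arrays, against 4330 and 7267 on the wild-type arrays. The lowest signal among the 15 was 6.7, on wild-type replicate 1. The macrophage marker Adgre1 had 115 and 261 in PEPCK-TAg and 91.4 and 186 in wild-type, with overlapping groups. The part of macrophage number in the C1q values was not tested. Of 18 other clotting and fibrinolysis genes 1 rose, Anxa2, whose product binds plasminogen at cell surfaces, with 862 and 1260.5 in PEPCK-TAg against 195 and 254 in wild-type (change 2.16 ± 0.24, adjusted p = 0.00421). The list median was -0.09.

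**Figure D4:**
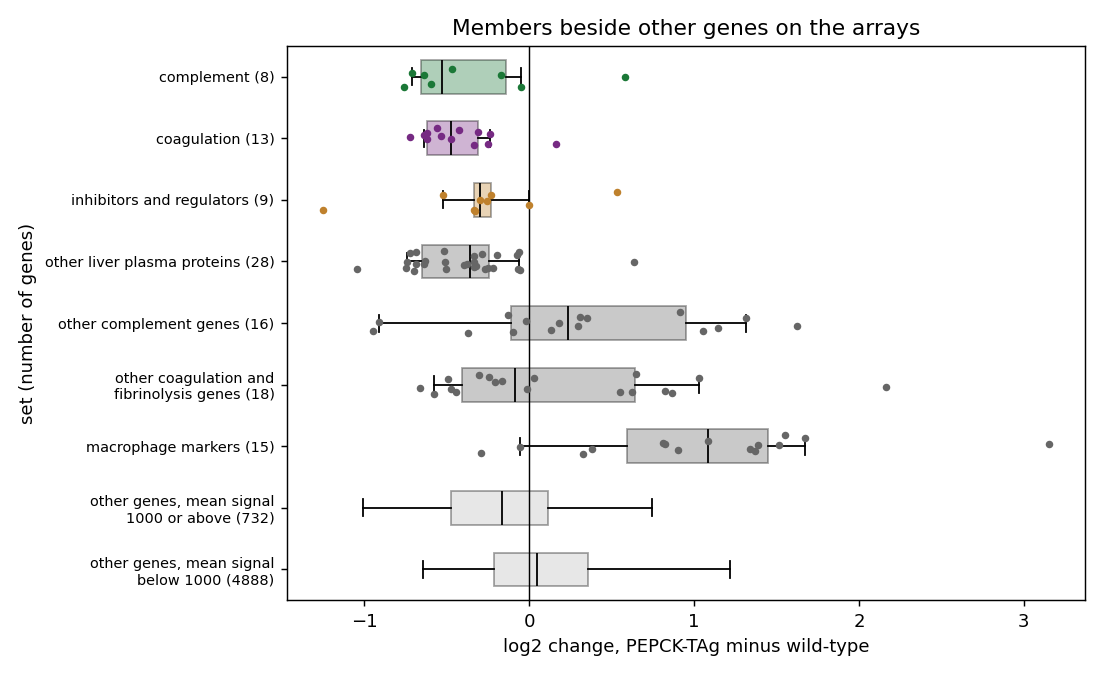
Log2 change, PEPCK-TAg minus wild-type (horizontal axis), of the 3 classes, of 4 lists of other genes, and of all other genes above and below a mean signal of 1000, with the number of genes in brackets. Boxes are quartiles with the median, whiskers reach the 5th and 95th percentile, and points are genes. The members lie beside other liver plasma proteins (median -0.36), and macrophage markers lie to the right (median 1.08).

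The acute phase genes gave a mixed picture. Of 19 tested, 4 rose, Lcn2, Saa3, Cd14 and Il1rn, 0 fell, and the median was 0.12. Cd14 is also counted among the macrophage markers that rose. Saa2, a serum amyloid gene whose brighter probe set can also bind related transcripts, measured 1051 and 595 in PEPCK-TAg, against 502 and 361 in wild-type (adjusted p = 0.125), and Stat3, which carries the interleukin 6 signal, had overlapping groups in its brighter probe set with 440.2 and 370 in PEPCK-TAg and 399.5 and 297 in wild-type. Fibrinogen and C9, which are acute phase genes in other settings, had the lower signals given above. Mean signals of the members in PEPCK-TAg ranged from 0.42 of the wild-type level for Hrg to 1.48 of it for C2.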

How the data were processed

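Total liver RNA of 2 PEPCK-TAg and 2 wild-type arrays was measured; groups and replicate numbers came from the sample titles. The deposited values are MAS5 signal intensity on a linear scale, per the submitters' processing notes (MAS5); the sources used here give neither its version nor the scaling target. Precision is limited by having 4 arrays. Of 12488 probe sets, 66 controls were left out; 10833 had 1 gene symbol in the platform annotation, 396 several and 1193 none. No coordinates beyond RefSeq promoter windows (GRCm38.p6) were used.

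The scale was log2(signal + 13), with an offset of 5% of the trimmed mean. The filter kept probe sets whose mean reached the 40th percentile (a signal of about 48.1), leaving 7453 probe sets and 5650 genes, each gene represented by its probe set of highest mean. PEPCK-TAg was compared with wild-type by limma 3.58.1 in R 4.3.3 (lmFit, eBayes with trend, two-sided, 2 residual and 4.61 prior degrees of freedom), with Benjamini-Hochberg adjustment over all probe sets. An exact permutation test of 2 against 2 could not go below 0.333. The fit was tested on simulated data. All members could be named; of other lists, genes past the threshold and up to 4 more of smallest p. Hnf4a, Stat3 and Adgre1 were named after their values were seen. Members and lists were chosen with earlier results of these data known.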

Additional observations from a re-analysis of the deposited data

How the results depend on the processing

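Of 389 values of single members under the alternatives, 347 kept direction and side of the threshold, 16 lost a call, 17 gained one and 9 changed sign. With no filter on dim probe sets 105 probe sets and 1 member were called lower, against 229 and 3 as reported, and eBayes without the trend gave 117 and 1. Quantile normalization called 1 member and gave medians of -0.23 for coagulation and -0.0086 for inhibitors, and turned the sign of Plg (0.12), Cfi (0.049), Serping1 (0.035) and Serpind1 (0.32). Centring on medians called 403 probe sets higher and 409 lower, against 477 and 229 as reported, called 8 members lower and gave a complement median of -0.68. Without single arrays, 294 to 401 probe sets were higher and 94 to 147 lower; 0 (without wild-type replicate 1) to 3 members were lower, where the 3 without wild-type replicate 2 were Fga, Masp1 and Hrg. Class medians then ran from -0.61 to -0.40 for complement, -0.52 to -0.34 for coagulation and -0.41 to -0.20 for inhibitors. Without single arrays, 4 members changed sign, with ranges of -0.15 to 0.14 for Serpind1, -0.18 to 0.077 for Cfb, -0.57 to 0.057 for Serpinf2 and -0.57 to 0.22 for Mbl2. The causes were not tested. A group left with 1 array was assumed to vary like the other. Replicate numbers are shared between groups, but no label says that they pair the arrays; deviations of same-numbered arrays correlated with r = 0.18 over probe sets. With the replicate number as a block, 696 probe sets were higher and 444 lower, and 12 members were lower, namely Hrg, F2 and F10 and, as calls gained, Fga (adjusted p = 0.0292), Fgb (0.0469), Fgg (0.0165), C9 (0.00467), Hc, F5, F9, Proc and Masp1. No sample group was large enough for a test of outlying arrays.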
